A study of Mus musculus with 6 samples.

Results

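Vimentin, the cadherins N-cadherin (Cdh2) and cadherin 11 (Cdh11), and the Snail, Twist and Zeb transcription factors were followed in whole mouse kidney. These 9 genes (Vim, Snai1, Snai2, Twist1, Twist2, Zeb1, Zeb2, Cdh2 and Cdh11) were taken by symbol from 18048 genes with a probe of their own on the array. Where a gene had several probes, the one with the highest mean over the 6 arrays stood for it. The samples were kidney tissue of 3 homozygous mutant mice, titled KO in the labels, and of 3 wild-type mice, with 1 single-colour CodeLink array per animal. The tissue had been perfused with saline and frozen. Per the series text, each array stands for its own animal, so the spread within a genotype is biological and technical together. The labels used here name neither the mutated gene nor the strain, age or sex, so the mutation could not be checked on its own transcript.

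In an epithelial-to-mesenchymal transition, an epithelial cell loses its cell-cell junctions and polarity and takes on features of a motile, matrix-producing cell. Snail (Snai1, Snai2) and Zeb (Zeb1, Zeb2) proteins are zinc-finger repressors that bind E-box sequences, among them those in the E-cadherin promoter. Twist proteins are basic helix-loop-helix factors that bind E-boxes as dimers. Vimentin filaments and the cadherins Cdh2 and Cdh11 are the classical gains of the mesenchymal state. In kidney the same genes are also used by cells that never were epithelial: vimentin by fibroblasts, endothelium, podocytes and leukocytes, and Zeb2 by myeloid cells and podocytes. N-cadherin is a normal cadherin of proximal tubule cells.

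Levels are intensities in multiples of the median of their array, or log2 of that value. Differences are mutant minus wild type in log2 units with the standard error of a limma fit, n = 3 arrays per genotype unless stated. The words rose and fell are kept for genes with an adjusted p below 0.05, the adjustment running over 25834 probes. A low-signal limit of 1.51 array medians (0.60 in log2) marks where signal could be told from the bulk of dim probes, and the arrays had 37.5% to 41.7% of their values above it. Levels of different probes cannot be set against each other. Kidney markers were bright in both genotypes: Umod, the uromodulin of the thick ascending limb, had 7.74 ± 0.33 log2 in mutants and 7.69 ± 0.12 log2 in wild type (SD, n = 3 each).

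Vim, Snai2 and Cdh11 rose in mutant kidney, and the other 6 genes did not pass the test. Of the 9 genes, all of which were tested, 3 rose and 0 fell by limma, and at an unadjusted p below 0.05 the counts were 4 and 1. Among all 14796 genes tested, 840 rose (5.68%) and 235 fell (1.59%), together 7.27%. Of these calls 78.1% were increases, a share of 63.5% after quantile normalization and 65.2% after cyclic loess. Many more genes pass the unadjusted cut: the endothelial marker Tek, at an unadjusted limma p of 0.0498, ranked 3083 of the 14796 by p. Unadjusted counts, here and for the lists below, are to be read against that rank. The median difference of the 9 genes was 0.80, against a median of 0.08 over all genes. The 9 include Cdh2 and Twist2, whose group means both lay below the low-signal limit. Only Vim passed with no intensity trend in the variance, without mutant replicate 2 and without wild-type replicate 2. In the last of these fits Cdh11 had 1 wild-type value left and was not tested.

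**Figure D1:**
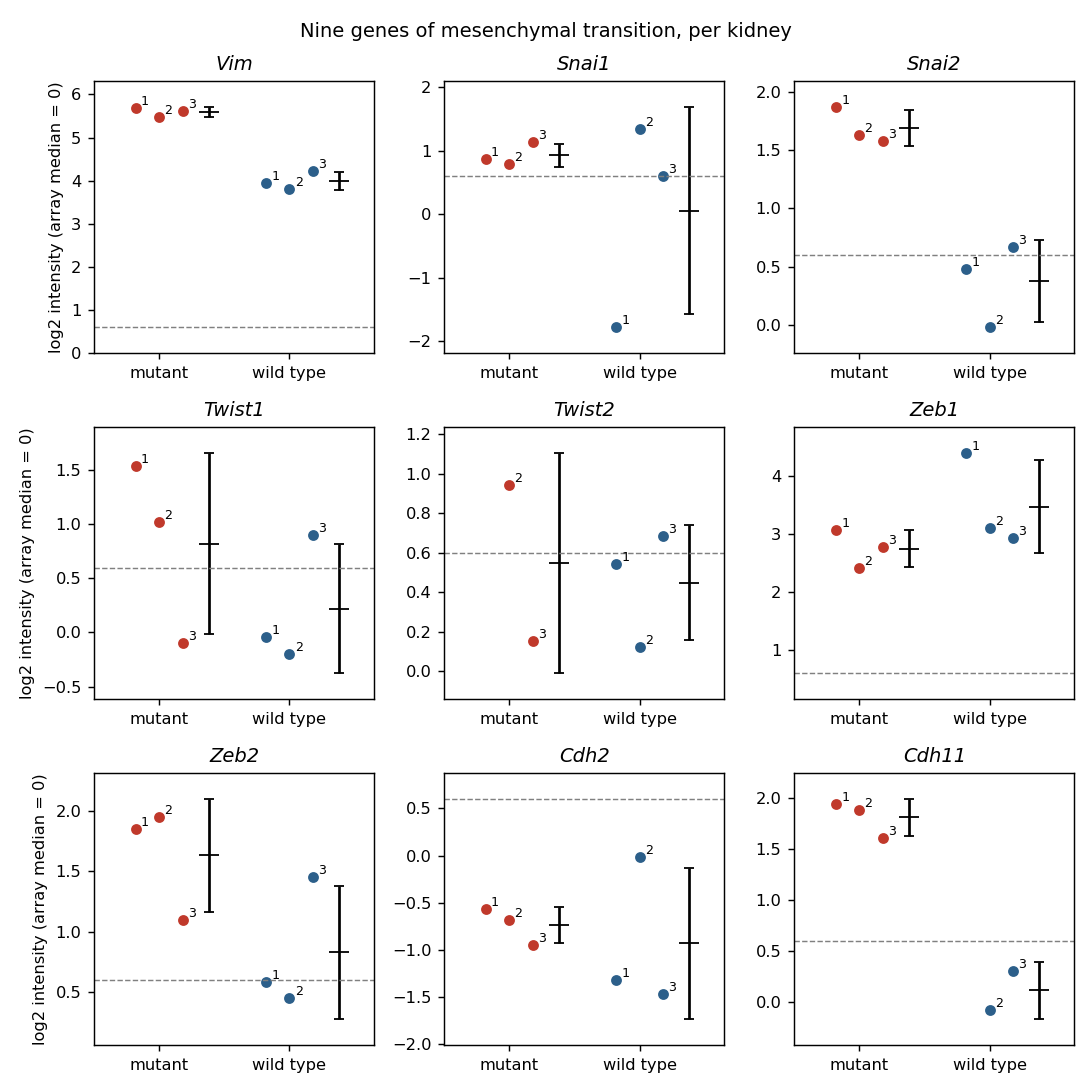
Log2 intensity of each of the 9 genes in each kidney (array median at 0), with mutants in red at left and wild type in blue at right. Numbers are replicates, black bars are means ± SD, and the dashed line is the low-signal limit of 0.60. The genotypes stand apart for Vim, Snai2 and Cdh11 and overlap for the other 6 genes.

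Vim encodes vimentin, the intermediate filament protein of mesenchymal cells. Its intensity was 51.4, 44.5 and 49.2 array medians in the 3 mutant kidneys, against 15.4, 14.1 and 18.8 in the 3 wild-type kidneys. All 6 values lay far above the low-signal limit, and the dimmest mutant was 1.25 log2 units above the brightest wild type. The means were 5.59 ± 0.11 log2 in mutants and 3.997 ± 0.21 log2 in wild type (SD, n = 3 each). Vim rose by 1.60 ± 0.14 log2 units, or 3.02-fold (95% interval of the difference 1.29 to 1.90, limma adjusted p = 1.5e-05). It was the member with the smallest p, ranking 43 of the 14796 genes. In whole tissue, more cells that express a gene and more RNA of it per cell cannot be told apart, here and for every gene below.

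The 250 bases upstream of the annotated Vim start are shown because Vim was the most clearly raised member. The sequence is RefSeq's for GRCm38.p6, chr2:13574061-13574310 on the plus strand, with capitals on its only TATAAA, whose first base lies at -32 from the start.
Vim: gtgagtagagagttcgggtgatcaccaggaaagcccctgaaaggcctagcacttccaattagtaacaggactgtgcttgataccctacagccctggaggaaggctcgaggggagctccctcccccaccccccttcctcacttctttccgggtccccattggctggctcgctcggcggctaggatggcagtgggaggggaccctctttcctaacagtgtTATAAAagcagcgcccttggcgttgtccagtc
TATAAA, read on both strands, is found in 12.4% of the 32851 such upstream windows of the table. The E-box CANNTG, which includes CAGGTG, is found in 66.2% of them and not in the Vim window. Neither trait is particular to Vim. Among the 5 members with an entry in the table, CANNTG was found only for Snai1, and TATAAA also for Twist1. These are letter matches only.

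Snai2 encodes Slug, a Snail family repressor of E-cadherin that also acts in neural crest migration. Its intensity was 3.65, 3.11 and 2.98 array medians in mutants, against 1.40, 0.987 and 1.59 in wild type. All 3 mutants lay above the low-signal limit and above every wild type, while 1 of 3 wild-type arrays passed the limit, narrowly. Snai2 rose by 1.32 ± 0.31 log2 units (95% interval 0.66 to 1.97, limma adjusted p = 0.0212). Because the wild-type mean lay below the limit, its change is read as at least 2.10-fold, with each dim wild-type value set to the limit. That fold allows for dim signal, not for the spread between arrays. The call is less stable than that of Vim. It was lost with no intensity trend (adjusted p = 0.0801), with only replicates 2 and 3 of each genotype (0.0825), without any 1 of the 3 mutants (0.0625 to 0.0996) and without wild-type replicate 2 (0.0542). Its difference stayed between 1.05 and 1.46 in all 19 alternative fits.

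Cdh11 encodes a classical type II cadherin of mesenchymal cells, first known from osteoblasts. Its intensity was 3.83, 3.68 and 3.04 array medians in mutants, against 0.946 and 1.24 in wild-type replicates 2 and 3. In wild-type replicate 1 the deposited value was below 0 and was treated as missing. No wild-type array reached the low-signal limit and all 3 mutants did. Cdh11 rose by 1.69 ± 0.33 log2 units (95% interval 0.98 to 2.40, limma adjusted p = 0.00820, n = 3 and 2). Its change is read as at least 2.31-fold, again without allowance for the spread between arrays. Cdh11 passed in 14 of the 16 alternative fits that could test it, and not with no intensity trend (adjusted p = 0.0666) or without mutant replicate 2 (0.0545). The groups did not overlap for Vim and Snai2, among 7 members with 6 values. Among all tested genes with 6 values, 17.8% stood apart with mutants higher and 8.89% with mutants lower.

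Cdh2 encodes N-cadherin. Its probe gave 0.673, 0.622 and 0.519 array medians in mutants, against 0.402, 0.990 and 0.363 in wild type. No array of either genotype reached the low-signal limit, so no direction can be read for N-cadherin. The fitted difference was 0.20 ± 0.55 log2 units (95% interval -0.99 to 1.39, limma adjusted p = 0.908).

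Snai1 encodes Snail, the founding repressor of the family. Its intensity was 1.83, 1.73 and 2.20 array medians in mutants, against 0.293, 2.53 and 1.53 in wild type. The mutants were close together, with an SD of 0.18 log2, but lay inside the wide wild-type range, whose SD was 1.63 log2. The difference of 0.88 ± 0.62 (limma adjusted p = 0.540) rested on wild-type replicate 1. Without that array it was -0.04 (adjusted p = 0.975). The probe was above the limit on all mutant arrays and on 2 of 3 wild-type arrays, and its difference was within the spread.

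Snai1 is the 1 member of the 5 with an entry in the promoter table that holds an E-box of the form CAGGTG, the site bound by Snail proteins, upstream of its start. Its 250 upstream bases are shown for that reason (RefSeq, GRCm38.p6, chr2:167537945-167538194, plus strand). The capitals mark the site, which reads CACCTG on this strand and begins at -126.
Snai1: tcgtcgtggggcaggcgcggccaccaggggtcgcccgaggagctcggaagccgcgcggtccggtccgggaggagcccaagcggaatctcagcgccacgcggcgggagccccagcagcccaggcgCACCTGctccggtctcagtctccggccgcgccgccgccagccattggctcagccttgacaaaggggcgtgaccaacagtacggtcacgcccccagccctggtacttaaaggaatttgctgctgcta
CAGGTG on either strand is found in 17.2% of all upstream windows of the table. None of the windows of Vim, Twist1, Twist2 and Zeb2 holds it.

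Twist1 encodes a helix-loop-helix factor of mesoderm and neural crest. Its intensity was 2.91, 2.02 and 0.935 array medians in mutants, against 0.974, 0.871 and 1.86 in wild type. Mutant replicates 1 and 2 were higher than every wild type, but mutant replicate 3 was lower than wild-type replicates 1 and 3. The difference of 0.60 ± 0.47 (limma adjusted p = 0.589) did not pass. Twist2, its close relative in dermis and bone, had no value on mutant replicate 1 and 1.92 and 1.11 array medians on the other mutants, against 1.46, 1.09 and 1.61 in wild type. Both group means lay below the low-signal limit, and the difference was 0.10 ± 0.44 (limma adjusted p = 0.944).

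The Zeb genes differed in opposite directions without passing the test. Zeb2 had 3.59, 3.86 and 2.14 array medians in mutants, against 1.50, 1.37 and 2.74 in wild type. Mutant replicate 3 lay below wild-type replicate 3, so the groups overlapped, and the difference was 0.80 ± 0.34 (95% interval 0.06 to 1.54, limma adjusted p = 0.247). A second Zeb2 probe lay below the limit on all 6 arrays and differed by 0.57 ± 0.50.

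Zeb1 had 8.36, 5.34 and 6.82 array medians in mutants, against 21.1, 8.60 and 7.62 in wild type. It was the only member with a negative difference, at -0.73 ± 0.31 (95% interval -1.39 to -0.07, limma adjusted p = 0.237). Wild-type replicate 1 was the high value, and mutant replicate 1 lay between the other wild types. Without wild-type replicate 1 the difference was -0.27 (adjusted p = 0.595). A second Zeb1 probe, with both group means below the limit, gave 0.59 ± 0.52 and did not pass, and no direction is read from it.

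**Figure D2:**
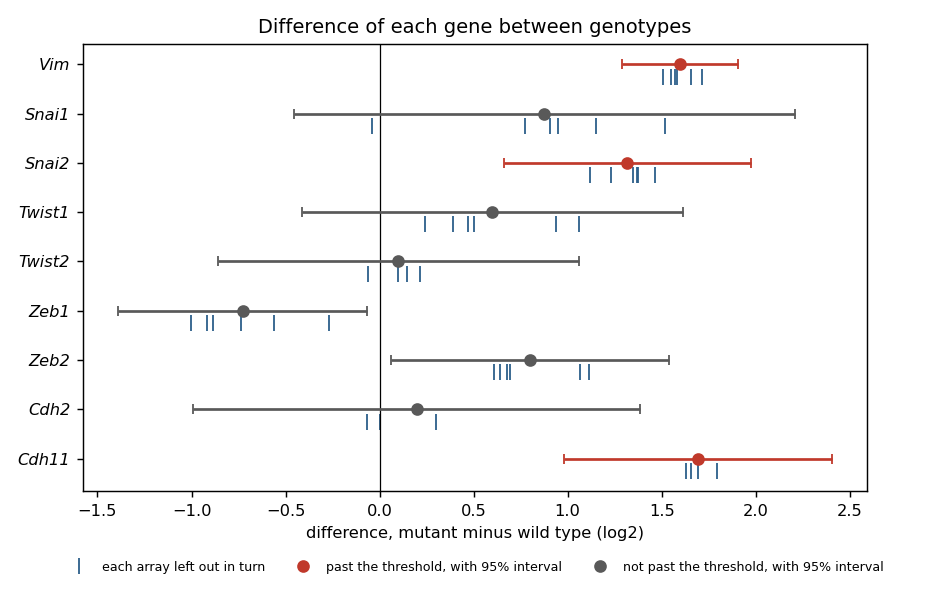
Difference of each gene, mutant minus wild type in log2, with its 95% interval unadjusted for the number of tests (red, past the threshold; grey, not past it). Blue ticks are the differences with each array left out in turn, where the gene could still be tested. Ticks of Vim stay between 1.51 and 1.71, while those of Snai1 reach -0.04.

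The genes also varied within a genotype. Mutant replicate 3 was the lowest mutant for 6 of the 9 genes (Snai2, Twist1, Twist2, Zeb2, Cdh2 and Cdh11), and wild-type replicate 3 the highest wild type for 6 (Vim, Snai2, Twist1, Twist2, Zeb2 and Cdh11). Of these, Twist2 had only 2 mutant values, Cdh11 only 2 wild-type values, and Cdh2 no array above the low-signal limit. Neither count was set against all genes. The deviation from the genotype mean was largest in mutant replicate 3 for Twist1 (-0.92 log2) and Zeb2 (-0.53), and it was -0.20 for Cdh11 and -0.12 for Snai2. In wild-type replicate 3 it was 0.68 for Twist1, 0.63 for Zeb2, 0.29 for Snai2 and 0.23 for Vim. Among 9 lists of cell type markers, described further on, the summed signal was also lowest in mutant replicate 3 for 5 (fibroblast and pericyte, myeloid, endothelium, podocyte and collecting duct). It was highest in wild-type replicate 3 for 1 of the 9 lists, the thick ascending limb. The part of these markers in the pattern was not tested.

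Among 13489 tested genes with 6 values, those most like Vim in profile were Panx1, a channel protein gene, Upp1, a uridine phosphorylase, and Rgs10, a regulator of G protein signalling. Likeness was the root mean square difference of log2 values over the 6 arrays, after each gene's own mean was taken off, and it was 0.088, 0.109 and 0.129 log2 for these genes. They rose by 1.55, 1.48 and 1.53 log2 units, but Upp1 lost its call in 4 of 19 alternative fits, among them those without any 1 mutant, and Panx1 lost it with no intensity trend. For Snai2 the nearest were Serpinb6c, Chn1 and Samsn1, at 0.105, 0.118 and 0.125 log2. Serpinb6c and Chn1 rose by 1.42 and 1.30, and Samsn1 differed by 1.23 and did not pass. Serpinb6c lost its call in 5 of 19 alternative fits and Chn1 in 4, among them those with no intensity trend and with only replicates 2 and 3. Cdh11 lacked a value on 1 array and was not searched. As these genes were picked by likeness, differences close to those of Vim and Snai2 follow from the search itself.

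Most genes of the mesenchymal state rose in mutant kidney. Of 16 tested, 13 rose and 0 fell (none fell at an unadjusted p below 0.05 either), with a median of 1.82. The matrix glycoprotein gene Tnc rose by 2.04 ± 0.18 log2 units, to 5.84 ± 0.17 in mutants against 3.80 ± 0.40 in wild type (SD, n = 3 each). The 4 members with the smallest p were Fn1, which encodes fibronectin, Tagln, an actin-binding protein of smooth muscle, the membrane metalloproteinase gene Mmp14 and Tnc, and their differences lay between 1.76 and 2.04 (limma adjusted p at most 1.5e-05). Itga5 and Cd44 lay below the limit on all arrays. With no intensity trend 8 rose. Col1a1, Col1a2, Col3a1, Thy1, Acta2 and Tagln also stand among the fibroblast or smooth muscle markers given further on.

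A list of signalling genes linked to the transition held mainly ligands, receptors and Smad genes, together with the hypoxia factor gene Hif1a, the kinase gene Ilk and Bmp7, known for opposing the transition in kidney. Of its 20 tested genes 5 rose and 1 fell, with a median of 0.28, and Hif1a, Ilk and Bmp7 did not pass. Tgfb1 and Tgfb3, ligands of the TGF beta receptors, rose by 1.22 ± 0.15 and 1.70 ± 0.20 log2 units. Tgfb1 was at 3.79, 3.78 and 3.64 log2 in mutants, against 2.50, 2.46 and 2.62 in wild type, so that the groups lay more than 1 log2 unit apart. Ccn2, a matricellular target of TGF beta, rose by 1.56 ± 0.17, and Pdgfb, a growth factor for pericytes, by 1.06 ± 0.18. The fifth, Axl, a receptor kinase named after its value was seen, had all wild-type arrays below the limit and was at least 1.70-fold higher. Egf, the epidermal growth factor of the distal nephron, fell by 1.02 ± 0.14. With no intensity trend 2 rose and 0 fell. Tgfbr1, Fgf2, Il6, Smad3 and Smad4 lay below the low-signal limit on all 6 arrays, so nothing is read for them.

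Transcription factors linked to the transition other than the members showed 1 increase among 15 tested and 0 decreases (4 and 0 at an unadjusted p below 0.05), with a median of 0.19. That gene was Tcf12, a helix-loop-helix partner of Twist proteins. No wild-type array of Tcf12 reached the low-signal limit. Its change is read as at least 2.07-fold (95% interval of the log2 difference 0.74 to 2.05, limma adjusted p = 0.0151). Tcf12 did not pass without mutant replicate 2 or 3, with only replicates 2 and 3, or with no intensity trend. Snai3, Prrx1, Tcf3, Klf8, Sox4, Sox9, Fosl1 and Hmga2 had no array above the limit. Of 11 corepressors and kinases that act with Snail and Zeb proteins, 0 rose and 0 fell by limma, and 4 and 0 at an unadjusted p below 0.05.

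The Id genes encode helix-loop-helix proteins that lack a DNA-binding region and hold partners of Twist in inactive dimers. None of the 4 passed (1 higher and 0 lower at an unadjusted p below 0.05). Id3 was at 4.92 ± 0.50 log2 in mutants and 4.18 ± 0.26 log2 in wild type (SD, n = 3 each), a difference of 0.74 ± 0.21 (limma adjusted p = 0.0682). It passed in 4 of 19 alternative fits, among them that without mutant replicate 3 (a difference of 0.97). Id1, Id2 and Id4 differed by -0.43 ± 0.41, -0.25 ± 0.17 and -0.27 ± 0.30, the last with 2 wild-type values.

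Of 24 tested epithelial genes that Snail and Zeb proteins are known to repress, 5 rose and 0 fell by limma (6 and 1 at an unadjusted p below 0.05), with a median of 0.17 against 0.08 over all genes. Cdh1, which encodes E-cadherin and is the classical target, was at 4.20, 3.95 and 3.91 log2 in mutants, against 3.83, 4.07 and 4.12 log2 in wild type. The genotypes overlapped, and the difference was 0.02 ± 0.14 (95% interval -0.29 to 0.33, limma adjusted p = 0.972). The lower bound of that interval is the largest fall of the whole-tissue signal that it still holds. Among 11 tested cadherins and catenins other than the members, 0 rose and 0 fell, also at an unadjusted p below 0.05. Cdh3, Cdh4, Cdh5, Cdh13, Cdh17 and Jup were below the limit on all arrays.

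The 5 epithelial genes that rose were Muc1, Cldn7, Cldn4, Cldn1 and Dsp. Muc1, a transmembrane mucin of the apical surface, was at 5.20 ± 0.30 log2 in mutants and 3.89 ± 0.15 log2 in wild type and rose by 1.31 ± 0.16 (limma adjusted p = 0.000215). The tight junction claudins Cldn7, Cldn4 and Cldn1 rose by 0.95 ± 0.16, 1.08 ± 0.18 and 1.06 ± 0.22. All 4 were above the low-signal limit on all 6 arrays, and none of them overlapped between genotypes. They were named for the smallest p of the list, so the lack of overlap largely follows from that choice. Among all tested genes with 6 values, 17.8% stood apart with mutants higher. Dsp, which encodes desmoplakin and was named after its value was seen, rose by 0.70 ± 0.16. With no intensity trend 0 rose, and without mutant replicate 2 the count was 3.

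CAGGTG, the Snail and Zeb site, occurs upstream of many genes of this list, whose members are known as targets of these repressors. It was found in 12 of the 24 upstream windows (50%) of the 17 listed genes in the promoter table, against 17.2% of all windows. Some genes have several starts, and by gene it was found in 10 of 17, against 5252 of 27025. As the list was made of known targets, this excess says nothing about these kidneys. The windows of Muc1, Cldn4 and Cldn7, whose transcripts rose, and of Ocln, which encodes occludin and differed by -0.16 ± 0.19, are shown around the site with 10 flanking bases where the window allows (RefSeq, GRCm38.p6, written along the gene's strand). The site was also found for Crb3, Epcam, Patj, Rab25, Tjp3 and Vdr, none of which passed the test. Capitals mark CAGGTG or its other strand, CACCTG.
Muc1 at -234 (chr3:89228812-89228837, plus strand): tccacatacaCACCTGgggtagtcaa
Muc1 at -70 (chr3:89228976-89229001, plus strand): tgttacctgtCACCTGctctgactgt
Cldn4 at -14 (chr5:134946935-134946958, minus strand): ttaactgcagCACCTGtggccgcc
Cldn7 at -97 (chr11:69965314-69965339, plus strand): tcttcctcttCACCTGgacgaggagg
Cldn7 at -57 (chr11:69965354-69965379, plus strand): acttccggttCAGGTGagtgtccctt
Ocln at -213 (chr13:100552696-100552721, minus strand): atcggagtttCAGGTGaatgggtcac
Ocln at -68 (chr13:100552551-100552576, minus strand): aggggctcggCAGGTGggtcccagcg
The Cldn1 window holds CANNTG but no CAGGTG. A match describes letters and is not a measured binding site. Positions are counted back from the annotated start that each window belongs to, and Cldn7 and Ocln each have a further annotated start.

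Intermediate filaments other than vimentin gave 2 increases among 9 tested and 0 decreases (4 and 0 at an unadjusted p below 0.05), with a median of 0.52. Des, the desmin of smooth muscle and mesangial cells, was at 2.16 ± 0.11 log2 in mutants and 0.67 ± 0.32 log2 in wild type and rose by 1.48 ± 0.26 (limma adjusted p = 0.00377), a call lost with no intensity trend (0.0551). Des is also counted among the smooth muscle markers given further on. Krt19, a keratin of simple epithelia, rose by 0.78 ± 0.20 (limma adjusted p = 0.0398). Krt19 lost its call after quantile normalization, after cyclic loess, and whenever 1 array was dropped, save for wild-type replicate 2. With no intensity trend 0 of the 9 rose.

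**Figure D3:**
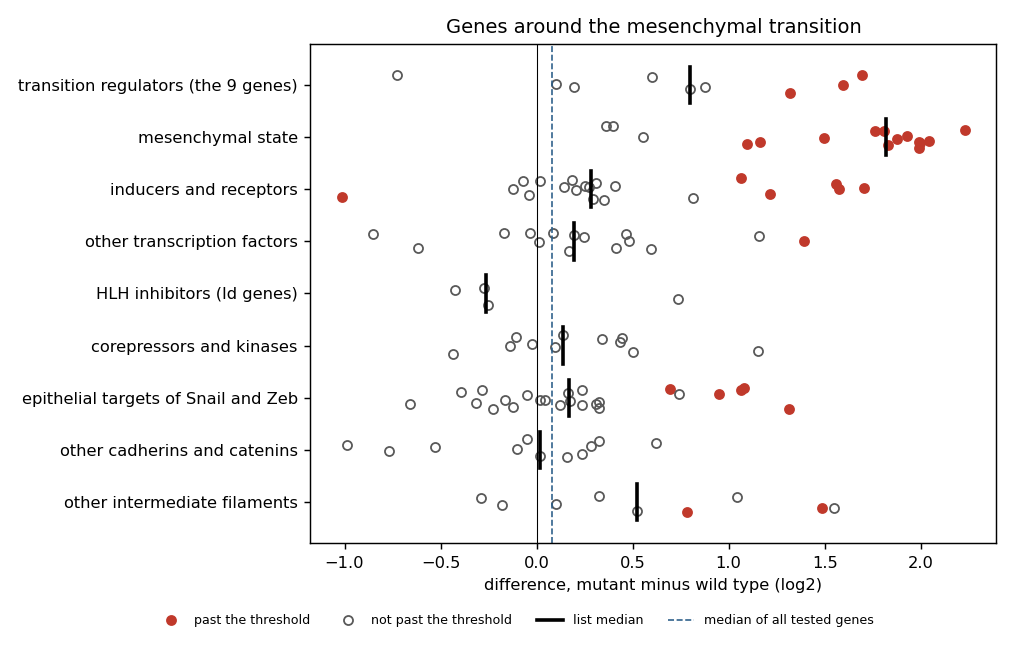
Difference of each tested gene, mutant minus wild type in log2, by list. Filled red points passed the threshold, open points did not, black bars are list medians, and the dashed line is the median of all tested genes (0.08). Mesenchymal state genes centre at 1.82, the 9 genes followed here at 0.80 and the epithelial targets at 0.17.

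Markers of several cell types that use these genes moved with genotype. A sum adds probes of unequal signal, so single probes can carry much of it: Col3a1 made up 44.8% to 60.8% of the fibroblast and pericyte sum of an array, Miox 49.7% to 56.9% of the proximal tubule sum and Umod 88.5% to 92.5% of the thick ascending limb sum. Of 12 fibroblast and pericyte markers 8 rose and 0 fell, with summed intensities between 382 and 436 array medians in mutants and between 92.1 and 147 in wild type. The collagen Col3a1 and the receptor Pdgfra rose by 1.99 ± 0.19 and 1.55 ± 0.21 log2 units, and none of the 12 was below the limit on all arrays. With no intensity trend 3 of the 12 rose. Of 7 smooth muscle markers 5 rose (1 with no intensity trend), with sums between 138 and 173 in mutants and between 66.3 and 79.1 in wild type. Tagln is given above, and Acta2, the actin of smooth muscle and myofibroblasts, rose by 1.16 ± 0.25, a call lost in 6 of 19 alternative fits. The part of these cells in the increases of Vim, Snai2 and Cdh11 was not tested.

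Of 13 myeloid markers 9 rose, with sums between 190 and 281 array medians in mutants and between 44.2 and 50.2 in wild type. Ctss, a lysosomal protease gene, and C1qb, a complement gene, rose by 2.52 ± 0.19 and 1.89 ± 0.17, while Adgre1, Itgam and Cx3cr1 were below the limit on all arrays. Of 9 lymphocyte markers 2 rose (0 with no intensity trend), with sums between 24.5 and 37.9 in mutants and between 15.2 and 18.3 in wild type. Ms4a1 was below the limit throughout. Ighm, the immunoglobulin mu chain, rose by 1.19 ± 0.18, and Cd79a differed by 0.13 ± 0.18. Leukocytes express Vim and Zeb2, and their part was not tested.

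Of 9 endothelial markers 1 rose and 0 fell (5 and 0 at an unadjusted p below 0.05), with sums between 117 and 129 array medians in mutants and between 88.6 and 105 in wild type, so that all mutant sums were higher. Emcn and Plvap differed by 0.34 ± 0.15 and 0.53 ± 0.15 without passing, and Cdh5, Flt1 and Erg were below the limit on all arrays. The 1 gene called was Tie1, a receptor kinase named after its value was seen, which rose by 0.74 ± 0.19. The call was lost without mutant replicate 1 or 2 and without wild-type replicate 1 or 3. It was also lost with no intensity trend, with no floor on low values and with only replicates 2 and 3. Of 5 podocyte markers 1, Cdkn1c, rose by 0.52 ± 0.13, and Ptpro differed by 0.25 ± 0.17. The Cdkn1c call was lost in 10 of 19 alternative fits. Among these were the fits without any 1 array, with no intensity trend, and after quantile normalization or cyclic loess. Podocyte sums lay between 38.9 and 46.3 in mutants and between 35.9 and 39.0 in wild type, and Podxl was below the limit throughout.

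Of 12 proximal tubule markers 7 fell and 0 rose, with sums between 620 and 682 array medians in mutants and between 1153 and 1296 in wild type. Miox, an oxygenase of inositol breakdown, fell by 0.99 ± 0.23 log2 units, a call lost in 4 of 19 alternative fits, and Kap differed by -0.58 ± 0.18 and did not pass. The count was 3 without mutant replicate 2, 4 without wild-type replicate 3 and 0 with no intensity trend. Proximal tubule cells are the main site of N-cadherin in kidney, and the Cdh2 probe was below the limit in both genotypes. None of 3 thick ascending limb and none of 9 collecting duct markers passed (each 1 higher and 0 lower at an unadjusted p below 0.05). In the thick ascending limb, sums lay between 189 and 286 in mutants and between 211 and 245 in wild type, and Cldn16 differed by 0.38 ± 0.14. In the collecting duct, sums lay between 111 and 142 in mutants and between 92.7 and 111 in wild type, and Hsd11b2 and Atp6v1b1 differed by 0.66 ± 0.24 and 0.18 ± 0.15. The red cell marker Alas2 differed by -1.63 ± 0.67 with 2 mutant values and did not pass.

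**Figure D4:**
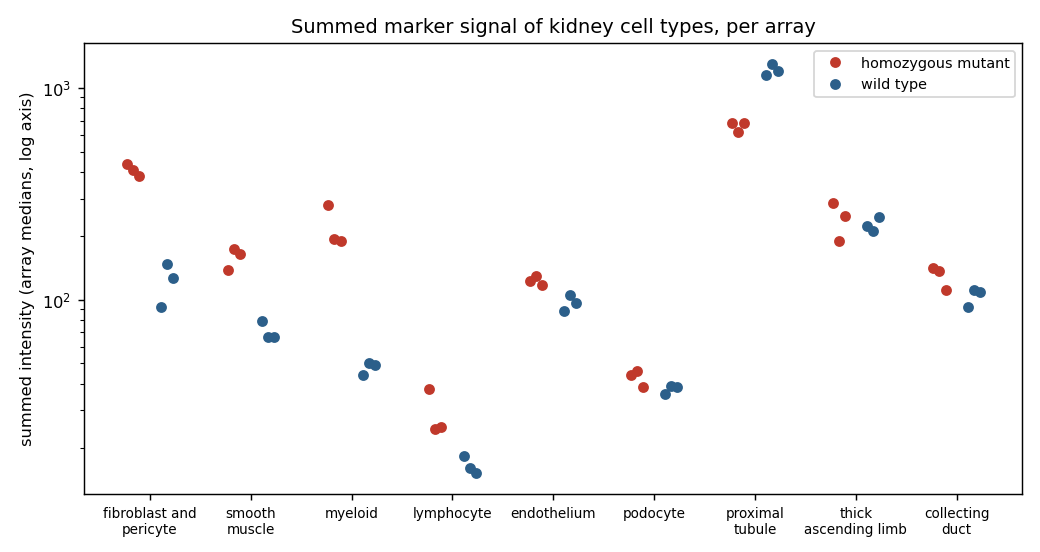
Summed intensity of the markers of each cell type on each array, in array medians on a log axis, with mutants in red and wild type in blue. Fibroblast, smooth muscle, myeloid, lymphocyte, endothelial and, narrowly, collecting duct sums are higher in all mutants than in any wild type, and proximal tubule sums are lower (620 to 682 in mutants and 1153 to 1296 in wild type).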

How the data were processed

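The authors deposited 1 linear intensity per probe and array. Per the labels' protocols, RNA was column-purified with DNase and labelled as biotin cRNA for CodeLink arrays. The labels used here do not state the software or the background and scaling steps. The deposited values include some below 0, and the array medians lie between 0.994 and 0.997. Of 34937 probes, 21590 had 1 symbol in the platform annotation, 681 several and 12666 none. The annotation matched the RefSeq table (GRCm38.p6) by gene identifier for 21462 probes.

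Arrays were divided by their medians. Values at or below 0 became missing, values under the 10th percentile of positive values (0.290) were set to it, and log2 was taken. Probes with values on at least 2 arrays per genotype, without the lowest 25% by mean, were tested with limma 3.58.1 in R 4.3.3 (lmFit, eBayes with trend, two-sided, Benjamini-Hochberg). The code was tested on simulated data. Precision is limited by having 3 arrays per genotype. Marker sums add linear values over probes. The low-signal limit is the mode of the linear values (0.524) plus 3 times the spread below it (0.330). For "at least" folds, the brighter group's mean was set against the dim group's with each dim or missing value at the limit. Such folds allow for dim signal only and not for the spread between arrays.

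The members and lists were chosen with earlier results of these data known. Named are all members and Cdh1, up to 4 genes per list and direction by smallest p, all Id genes, the 2 markers of highest mean signal per cell type, and 3 genes most alike to each raised member. Alternatives covered scaling, floor, filters, variance model, weights, replicate block, threshold and leaving out arrays. Same-numbered arrays deviated together weakly (correlations of 0.07, 0.02 and 0.07 over 22989 probes). Other pairs of a mutant and a wild-type array had correlations between -0.07 and 0.003.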

Additional observations from a re-analysis of the deposited data

How the results depend on the processing

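The number of the 9 genes that rose was 3 under each scaling and each treatment of low values, and 1 with no intensity trend. It was 2 with only probes valued on all 6 arrays, with only replicates 2 and 3, and at an adjusted p of 0.01. With single arrays left out, it was 3 only without wild-type replicate 1. It was 1 without mutant replicate 2 or wild-type replicate 2, and 2 in the other such fits. Cdh11 could not be tested on complete probes or without wild-type replicate 2 or 3. Vim passed in all 19 alternative fits, with differences between 1.51 and 1.71. Snai2 passed in 13 of 19, and Cdh11 in 14 of the 16 that could test it. With the replicate number as a block, 1 member, Zeb1, fell (-0.73, adjusted p = 0.0321), and genes lower numbered 364. The labels tie same-numbered arrays by nothing but the number, though each correlated best with its own number. The block left the count of raised members at 3, while 1084 genes rose. Whether same-numbered arrays form pairs was not tested. The second Zeb1 probe, with both group means below the low-signal limit, gave 0.59, a sign that is not read.

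Over all genes, 143 rose and 6 fell with no intensity trend. Genes lower numbered 402 after quantile normalization, 398 after cyclic loess and 353 with array weights. With only replicates 2 and 3, 500 rose. At an adjusted p of 0.01, 456 rose and 88 fell, and at 0.10, 370 fell. With single arrays left out, 475 to 802 genes rose and 113 to 248 fell. The lowest counts came without mutant replicate 2. These causes were not tested, although fits without an array have fewer samples. No direction is read for Cdh2, which had no array above the low-signal limit, or for Twist2. For Twist2 both group means lay below the limit, with 1 array of each genotype above it.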
